A study of Homo sapiens with 9 samples.

Results

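The genes described here are the clustered histone genes, which encode the linker histone H1 and the core histones H2A, H2B, H3 and H4 that package DNA. They were taken from the gene table by symbol: H1- followed by a number, or H2AC, H2BC, H3C or H4C followed by a number. The rule found 60 of the 16612 genes of the table, namely 7 genes of the H1 family, 15 of H2A, 15 of H2B, 11 of H3 and 12 of H4. All 60 passed the filter on low counts. By the RefSeq annotation of GRCh38.p14, 47 of them lie on chromosome 6 between 26020451 and 27893891, and 11 lie on chromosome 1 between 149782689 and 149887965. H1-10 on chromosome 3 met the rule by name but lies outside both clusters.

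RNA was measured in HNT34, a cell line from a human acute myeloid leukemia (AML) with a rearranged 3q26 locus that drives the transcription factor EVI1, a product of the gene MECOM. The cells carried a lentiviral vector with an RFP and a puromycin resistance gene and with 1 of 3 short hairpin RNAs (shRNA): a non-targeting control (NT), or EVI1-directed sh#16 or sh#87. RNA was collected 3 days after selection, and strand-specific libraries were made after polyA selection, with 3 libraries per group. Neither the labels nor the methods say whether the 3 libraries of a group came from separate transductions, so p-values measure the spread between these libraries, which may be technical. All groups are 1 cell line with 1 vector backbone, and the control carries the same selection marker.

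Most histone mRNAs are unlike other mRNAs. Cells make them in bulk while DNA is copied, and their 3′ ends are cut just after a short RNA stem-loop that is bound by the stem-loop binding protein SLBP, so the mature mRNA has no polyA tail. A polyA-selected library is therefore expected to hold only a part of this RNA, and the values below are of what such libraries retained. Some histone genes also give longer, polyadenylated transcripts, which have been described in cells that leave the cell cycle. H1-10 differs from most of the others in that it is made throughout the cell cycle as a polyadenylated mRNA. In whole-cell libraries, fewer cells in S phase and less histone mRNA per cell cannot be told apart.

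The 3′ stem-loop was searched in the reference transcripts (GENCODE v44 on GRCh37) because it sets how much of a histone mRNA a polyA library can hold. Searched over the whole transcript, it was found in 51 of the 56 genes with a transcript there, in H2BC21 with 1729 bases after it. Among all 62296 gene symbols, with 1 transcript each, 0.104% had it within the last 120 bases. These shares come from unlike searches. H1-10, H2BC10, H3C6 and H4C13 were among the 5 genes with no match. The sites of 4 genes whose values are described below follow, each in the 3′ UTR, with the 16 bases of the stem and loop in capitals.
H4C4: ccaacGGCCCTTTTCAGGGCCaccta
H3C1: gcaaaGGCTCTTTTCAGAGCCaccac
H2BC14: ccaaaGGCTCTTTTCAGAGCCgtcca
H2BC4: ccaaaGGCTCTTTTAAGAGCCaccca
H2BC14 and H3C1 carried the most frequent of the 7 forms found, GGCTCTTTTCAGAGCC, which stood in 32 genes. H4C4 carried another form, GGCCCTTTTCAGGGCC, which stood in 6 genes. In 38 genes every GENCODE transcript ended within 120 bases of the stem-loop, while 13 genes, among them H2BC4, H2BC5, H2BC21, H4C14 and H4C15, also had a GENCODE transcript that did not. H2BC12 and H3C4 are among the 38, with transcripts of 495 and 503 bases. Their RefSeq spans, chr6:27138293-27146858 and chr6:26196784-26199293, are longer, so this sorting holds for GENCODE alone.

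MECOM, the targeted gene, was measured at 569.6, 503 and 439.7 CPM in the NT libraries, 146, 143 and 146 CPM with sh#16 and 109, 107 and 106 CPM with sh#87. All 6 knockdown libraries lay below the 3 NT libraries, and the log2 fold change with both shRNAs was -2.00 ± 0.14 (SE), adjusted p = 9.18e-07 (edgeR's quasi-likelihood test, Benjamini-Hochberg adjusted over all genes tested, as everywhere below). MECOM was lower with sh#87 than with sh#16, with a log2 difference of -0.43 ± 0.09 (SE), adjusted p = 0.00661. The libraries held 17096170 to 43502389 counts, and values are given as CPM, the counts scaled to a common library size with TMM factors. The NT libraries differed more from each other than those of either shRNA, with a biological coefficient of variation over all genes of 24.98%, against 3.77% for sh#16 and 6.98% for sh#87. Small RNAs without a polyA tail, such as RN7SL1 and RPPH1, took 3.39%, 5.12% and 5.94% of the counts in NT replicates 1, 2 and 3, 7.16% to 8.06% in sh#16 and 5.98% to 7.26% in sh#87. Mitochondrial genes took 15.9%, 11.5% and 4.69% of the counts in the same NT libraries, 2.69% to 2.88% in sh#16 and 4.62% to 5.97% in sh#87. Not every small RNA without a polyA tail was higher with the hairpins. RN7SK, more abundant than RN7SL1 and RPPH1, stood at 30848 ± 3653 CPM in NT, 24475 ± 671 CPM in sh#16 and 20097 ± 2363 CPM in sh#87 (SD, n = 3). Of 158 such genes tested, 74 (46.8%) were higher and 4 (2.53%) lower with both shRNAs, where 30.1% and 29.7% of all genes were. Of 6 myeloid markers, 5 were in the table and summed to 1918 to 2033 CPM in NT, 612 to 619 CPM in sh#16 and 342 to 347 CPM in sh#87. PTPRC (853 CPM) and CD34 (729 CPM) were most of the NT mean. With both shRNAs as 1 group, PTPRC, CD34 and KIT were lower, while ANPEP and CD33 were not called. Of 9 markers of other cells, 5 were in the table and summed to 241 to 252, 89.3 to 94.1 and 63.9 to 67.2 CPM in NT, sh#16 and sh#87. PECAM1 was the larger part of that sum in NT and with sh#16, and under sh#87 it stood beside a similar level of COL1A1. COL1A1, a collagen gene of fibroblasts, was at 0.0432 to 0.172 CPM in NT and at 26.0 to 30.3 CPM in the knockdown libraries.

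As a whole, histone genes had a higher summed level with sh#16 than in NT, and with sh#87 a sum near that of NT. Their summed level was 10390 ± 1022 CPM in NT, 17185 ± 699 CPM in sh#16 and 10321 ± 1230 CPM in sh#87 libraries (SD, n = 3). No test was made of these sums. Every sh#16 library, at 16381 to 17645 CPM, lay above every NT library, at 9226 to 11141 CPM, and every sh#87 library but 1 lay inside the range of NT. The make-up of that sum differed with both hairpins: H3 genes were 6.70% to 13.4% of histone counts in NT, 18.0% to 18.5% in sh#16 and 21.1% to 21.96% in sh#87, and H2B genes were 24.5% to 27.0%, 20.2% to 20.3% and 17.1% to 17.6%. The share of small RNAs without a polyA tail was also higher in every sh#16 and every sh#87 library than in every NT library. Its part in these values was not tested.

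**Figure D1:**
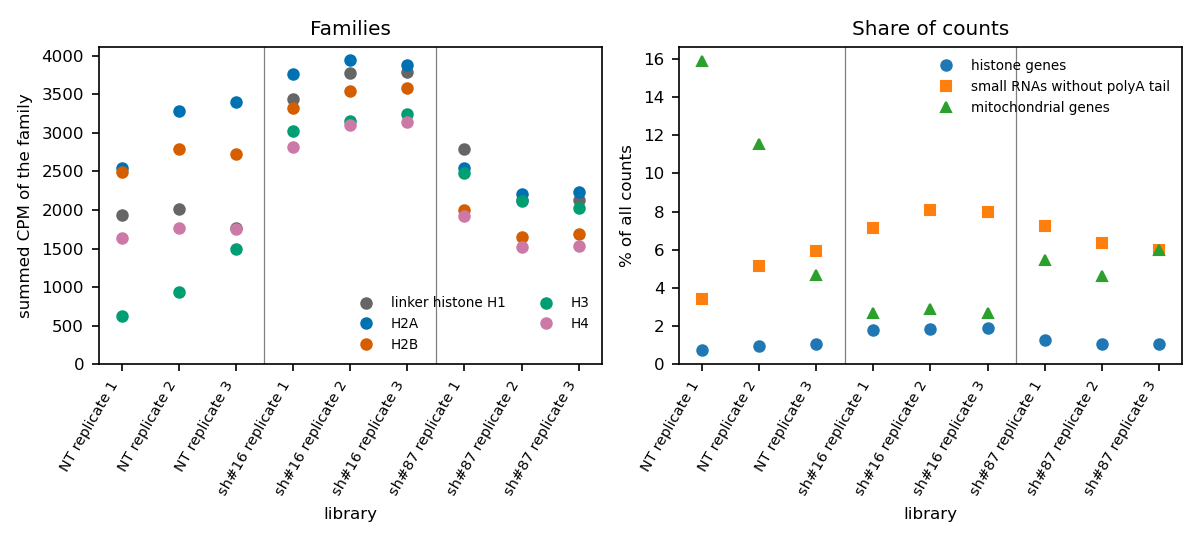
Left, summed CPM of each histone family in each of the 9 libraries. Right, percent of all counts taken by histone genes, by small RNAs without a polyA tail and by mitochondrial genes. The H3 sum lies between 618 and 1488 CPM in NT and between 2029 and 3248 CPM in the knockdown libraries.

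Gene by gene, 20 of the 60 histone genes rose with both shRNAs taken as 1 group of 6 libraries and 1 fell, at an adjusted p of at most 0.01. Among all 16312 genes tested, 30.1% were higher and 29.7% lower, so in this fit the 33.3% of histone genes that rose is near the background and the 1.67% that fell is below it. With the hairpins as 1 group, a difference between them counts as spread and makes a call harder. More histone genes fell when the mean of the hairpins came from a fit of 3 groups, as given further below. The share of all genes was not worked out for that fit. The limit of an absolute log2 fold change of 2 was passed by 8 histone genes, namely H2AC18, H4C4, H4C15, H3C1, H3C13, H3C14, H3C15 and H1-10, where 15.4% of all genes passed it. The median log2 fold change of the histone genes was 0.61, against 0.05 over all genes. Without NT replicate 1, 4 histone genes passed the fold change limit, and the count that fell was 2 without NT replicate 3 or sh#16 replicate 1 and 3 without sh#16 replicate 2. Histone transcripts are short and rich in G and C, with a median of 492.5 bases and 58.2% GC against 2939.5 bases and 48.6% over all genes tested. When each library's trend with length and GC content was removed, an alternative added after the data were seen, 17 of the 56 genes with a reference transcript were higher and 9 lower, 3 passed the fold change limit, and the median was 0.13. Of those past the limit, 1 was an H3 gene and 2 were H4 genes. Over all genes 29.8% were then higher and 34.5% lower.

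With sh#16 alone, 35 histone genes rose and 3 fell, where 29.8% of all genes were higher and 30.2% lower. The fold change limit was passed by 8, against a background of 12.8%. With sh#87 alone, 18 rose and 15 fell, where 34.3% of all genes were higher and 33.6% lower, and 10 passed the fold change limit against a background of 18.9%. Both comparisons use the same NT libraries. The median log2 fold change was 0.98 with sh#16 and 0.05 with sh#87. Without NT replicate 3, 15 genes passed the fold change limit and 6 were lower with sh#16, and leaving out NT replicate 2 or any 1 sh#16 library left 1 lower. With the length and GC correction, 24 were higher and 10 lower with sh#16, and 17 higher and 25 lower with sh#87, with medians of 0.42 and -0.34 among 56 genes. Of all genes, 31.8% were then higher and 36.6% lower with sh#16, and 35.0% and 38.6% with sh#87, so the 30.4% and 44.6% of histone genes with sh#87 are near that background. The fold change limit was then passed by 2 and 7 genes. By family, the corrected medians with both shRNAs stayed positive for H3 (0.92), H1 (0.36) and H4 (0.30), and that of H2B turned negative (-0.20).

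Most histone genes were lower with sh#87 than with sh#16. Directly compared, 32 histone genes were lower with sh#87 than with sh#16 and 2 were higher, where 9.42% of all genes were lower and 8.29% higher. The 2 higher were H2BC6 and H4C15, and H4C15 cannot be read apart from its near-identical copy H4C14. The log2 difference was negative for 56 of 60 genes, with a median of -0.77, and for 51.4% of all genes, with a median of -0.02. In 55 genes all 3 sh#87 libraries lay below all 3 sh#16 libraries, which was so for 34.4% of all genes. Only H2BC14 passed the fold change limit, against a background of 0.454%. With the length and GC correction 35 were lower and 2 higher among 56 genes, where the shares of all genes were 14.1% lower and 14.1% higher. The count of genes lower with sh#87 was 18 without sh#16 replicate 2, 20 without sh#16 replicate 3, 16 without sh#87 replicate 2 and 17 without sh#87 replicate 3, and in each of these 4 cases 1 gene was higher. Without sh#16 replicate 1 or sh#87 replicate 1, 2 genes passed the fold change limit.

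**Figure D2:**
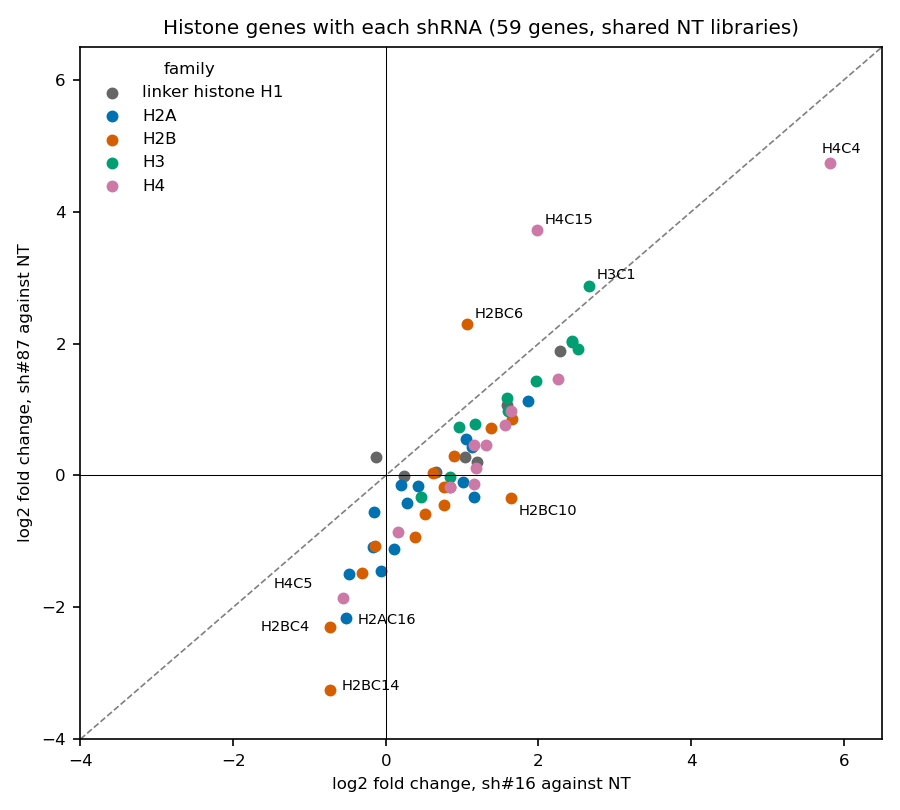
Log2 fold change of 59 histone genes with sh#16 (horizontal axis) and with sh#87 (vertical axis) against the same NT libraries, coloured by family, with H2AC18 left out because its counts cannot be told from those of a near-identical copy. Most points lie below the dashed line of equal change, and H4C15 and H2BC6 lie above it.

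**Figure D3:**
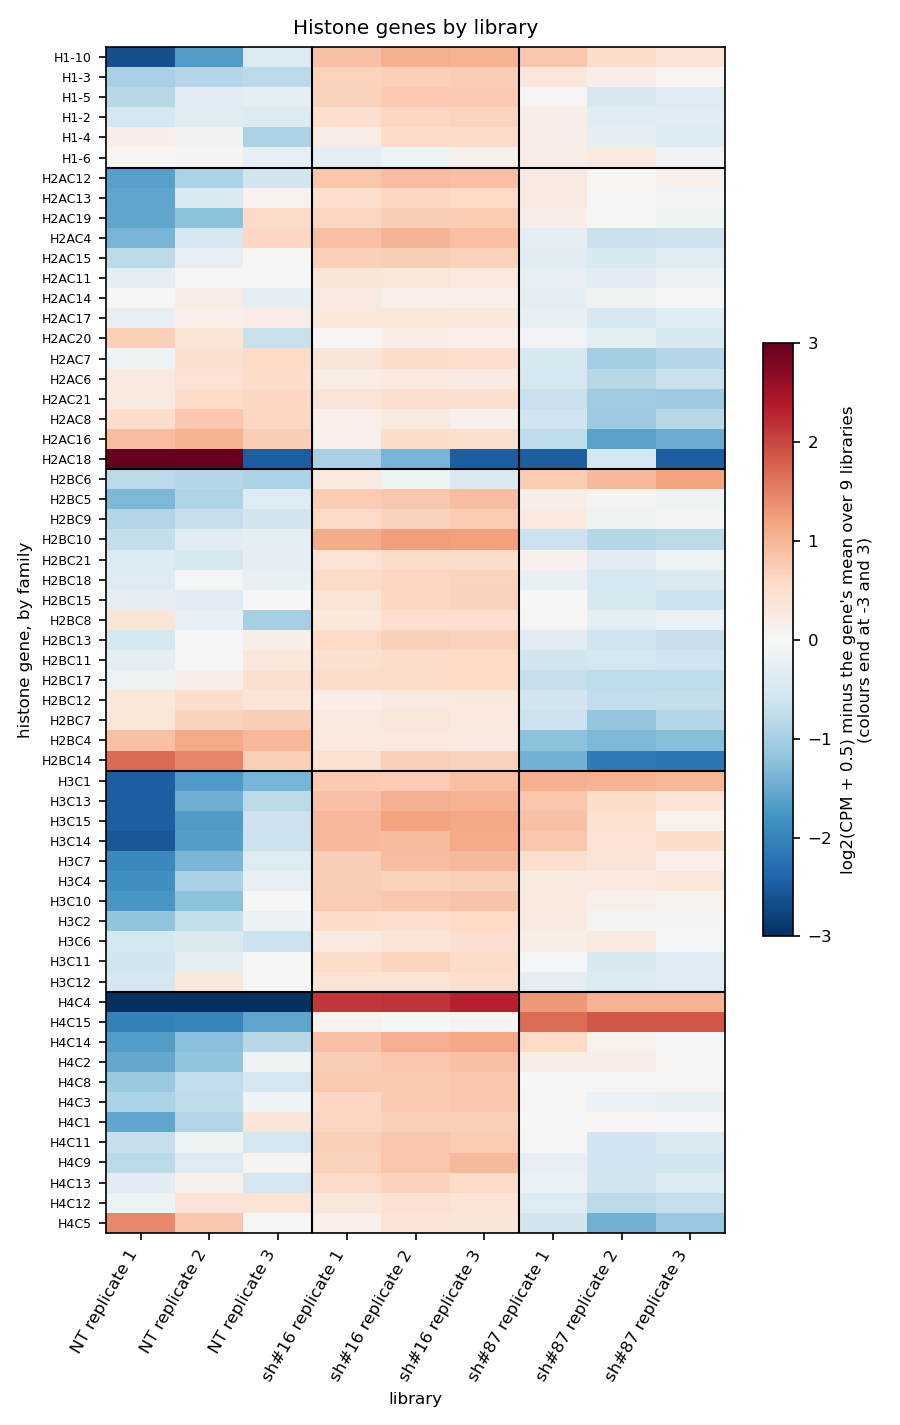
Log2(CPM + 0.5) of 59 histone genes in each of the 9 libraries, minus the gene's mean over the 9 libraries, with genes in order of their log2 fold change with both shRNAs inside each family (red, above the mean; blue, below). The 3 sh#16 libraries are red for most genes, while NT replicate 1 is the bluest NT library in the H3 family.

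The NT libraries spread widely for these genes. The median coefficient of variation of a histone gene was 23.8% in NT, 4.63% in sh#16 and 12.1% in sh#87. Of the 3 NT libraries, replicate 1 was the lowest for 45 genes and replicate 3 the highest for 39. NT replicate 3 was also the NT library with the most small RNA without a polyA tail and the fewest mitochondrial counts, and the part of these in the histone values was not tested.

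The linker histones bind the DNA between nucleosomes and help fold chromatin. Of the 7 genes, 4 rose with sh#16, 2 with sh#87 and 2 with both as 1 group, and none fell. Those are 57.1%, 28.6% and 28.6% of the family, where 29.8%, 34.3% and 30.1% of all genes were higher. The shares with sh#87 and with both are near or below that background. H1-10, also known as H1X (chr3:129314771-129316286, minus strand), was measured at 16.1, 32.0 and 78.4 CPM in the NT libraries, 191, 217 and 213 CPM with sh#16 and 184, 151 and 135 CPM with sh#87. All knockdown libraries lay above NT replicate 3, the highest of NT, and the log2 fold change with both shRNAs was 2.10 ± 0.42 (SE), adjusted p = 0.00112. With the length and GC correction, no H1 gene passed the fold change limit with both shRNAs. The highest log2 fold change of the family was then 1.21. H1-3 was measured at 135, 143 and 149 CPM in the NT libraries, 418, 433 and 436 CPM with sh#16 and 326, 301 and 272 CPM with sh#87. Its groups did not overlap, with a log2 fold change of 1.35 ± 0.17 (SE), adjusted p = 5.54e-05. H1-2 and H1-5, which are made in S phase, rose with sh#16 by 1.04 and 1.20 on the log2 scale, with adjusted p of 0.000142 and 0.000234. With sh#87 their log2 fold changes were 0.28 and 0.20, which were not called. H1-2 stood at 415 ± 25.2 CPM in NT, 855 ± 47.1 CPM in sh#16 and 505 ± 110.4 CPM in sh#87, and H1-5 at 427 ± 86.1 CPM in NT, 983 ± 33.9 CPM in sh#16 and 491 ± 102 CPM in sh#87 (SD, n = 3). H1-4 (0.65 with sh#16 and 0.05 with sh#87) was not called in any comparison. H1-6, the testis form, was read at 13 to 30 counts per library, the lowest of all 60 genes, and was not called.

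H2A pairs with H2B into the dimers that flank the H3 and H4 tetramer of the nucleosome. Few H2A genes were called with both shRNAs as 1 group, where a difference between the hairpins counts as spread: 1 rose, 1 fell and 13 were not called. The 1 gene in each direction is 6.67% of the family, where 30.1% of all genes were higher and 29.7% lower. The median log2 fold change of H2A genes was -0.03, 0.08 with upper-quartile scaling and -0.57 with the length and GC correction, so no direction is given for the family. With sh#16, H2AC11, H2AC12 and H2AC15 rose and H2AC8 and H2AC18 fell. With sh#87, H2AC12 rose and 7 fell, namely H2AC6, H2AC7, H2AC8, H2AC16, H2AC17, H2AC18 and H2AC21. With sh#16, 20% of H2A genes thus rose and 13.3% fell, where 29.8% and 30.2% of all genes did. With sh#87, 6.67% rose and 46.7% fell, where 34.3% and 33.6% of all genes did. H2AC12 was measured at 47.4, 76.8 and 101.1 CPM in the NT libraries, 265, 279 and 277 CPM with sh#16 and 178, 154 and 160.7 CPM with sh#87. NT lay below both knockdown groups, and the log2 fold change with both shRNAs was 1.54 ± 0.29 (SE), adjusted p = 0.000756. H2AC16 was measured at 164, 178 and 146 CPM in the NT libraries, 96.0, 126 and 120.2 CPM with sh#16 and 51.0, 28.0 and 30.4 CPM with sh#87, and the groups stood apart in that order, with a log2 fold change of -2.16 ± 0.22 (SE), adjusted p = 1.79e-05 with sh#87 and -0.52 (not called, adjusted p = 0.0504) with sh#16. H2AC8 stood at 361 ± 34.5 CPM in NT, 258 ± 13.1 CPM in sh#16 and 129 ± 22.5 CPM in sh#87 (SD, n = 3) and fell by 0.49 and 1.49 on the log2 scale with sh#16 and sh#87. The call of H2AC8 with sh#16 was lost in 7 of 19 alternative settings, and that with sh#87 in 0. H2AC6, which is among the histone genes described to give polyadenylated transcripts in differentiated cells, stood at 364 ± 28.4 CPM in NT, 326 ± 9.32 CPM in sh#16 and 172 ± 20.4 CPM in sh#87, and H2AC21 at 118 ± 16.1 CPM in NT, 113 ± 3.92 CPM in sh#16 and 43.0 ± 7.29 CPM in sh#87. H2AC7 (0.11 with sh#16 and -1.11 with sh#87) and H2AC17 (0.27 with sh#16 and -0.41 with sh#87) fell with sh#87, and both were also called lower in the direct comparison of the hairpins. The sh#87 libraries overlapped NT for H2AC17, and its call against NT was lost in 14 of 19 alternative settings, among them leaving out NT replicate 2, NT replicate 3 or any 1 knockdown library. H2AC11 (0.42 with sh#16 and -0.15 with sh#87) and H2AC15 (1.01 with sh#16 and -0.10 with sh#87) rose with sh#16 and were likewise lower with sh#87 than with sh#16. With the length and GC correction, the value of H2AC11 with sh#16 turned to -0.32. H2AC4 (1.15 with sh#16 and -0.32 with sh#87), H2AC13 (1.05 with sh#16 and 0.55 with sh#87), H2AC14 (0.20 with sh#16 and -0.15 with sh#87), H2AC19 (1.12 with sh#16 and 0.44 with sh#87) and H2AC20 (-0.15 with sh#16 and -0.55 with sh#87) were not called against NT.

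Single members of near-identical gene pairs cannot be read alone. H2AC18 was read at 3511, 8607 and 0 counts in NT and at 0 to 32 counts in the knockdown libraries, a fitted log2 fold change of -8.40 ± 1.48 (SE), adjusted p = 0.000488 that depends on the prior count where libraries are at or near 0. NT replicate 3 held 0 counts, like several knockdown libraries, so the groups overlap. Its neighbour on chromosome 1, H2AC19, held the counts where H2AC18 did not, and the sum of both was 337, 608 and 823 CPM in the NT libraries, 867, 919.8 and 939 CPM with sh#16 and 632, 565 and 496 CPM with sh#87. The summed log2 fold change was 0.32 ± 0.29 (SE), adjusted p = 0.341, which is not a call, and no histone gene was then lower with both shRNAs. Read-length words of 100 bases were used to find the other such genes: 41 of the 56 genes with a transcript shared none with another of these 56, and 8 shared at least 50%. The 8 are H3C14 with H3C15, H4C14 with H4C15, H4C11 with H4C12 and H2AC13 with H2AC14. The last pair rose with sh#16 when summed, by 0.58 ± 0.11 (SE), adjusted p = 0.00148 on the log2 scale.

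H2B genes differed by hairpin. With sh#16, 9 of 15 rose and 1 fell, and with sh#87, 3 rose and 6 fell, while 12 were lower with sh#87 than with sh#16. Of all genes, 29.8% were higher and 30.2% lower with sh#16, and 34.3% and 33.6% with sh#87. Between the hairpins, 9.42% of all genes were lower. The 20% of H2B genes that rose with sh#87 is below the background and the 40% that fell is near it. With the length and GC correction, 4 of 13 rose and 4 fell with sh#16, and 4 rose and 9 fell with sh#87. Of all genes, 31.8% were then higher and 36.6% lower with sh#16, and 35.0% and 38.6% with sh#87. H2BC14 (chr6:27815022-27815489, plus strand) was measured at 176, 152 and 88.9 CPM in the NT libraries, 75.2, 89.3 and 87.5 CPM with sh#16 and 19.9, 12.002 and 11.6 CPM with sh#87. All sh#87 libraries lay below every other library, and the sh#16 libraries overlapped with NT replicate 3. The log2 fold change was -3.26 ± 0.29 (SE), adjusted p = 7.21e-06 with sh#87, -0.73 (not called, adjusted p = 0.0315) with sh#16 and -2.53 ± 0.28 (SE), adjusted p = 0.000406 between the hairpins. H2BC4 (chr6:26113170-26123926, minus strand), which has annotated transcripts without a 3′-terminal stem-loop, was measured at 377, 448 and 407 CPM in the NT libraries, 250.1, 251 and 242 CPM with sh#16 and 86.1, 79.3 and 84.4 CPM with sh#87. The 3 groups stood apart, NT highest and sh#87 lowest, with log2 fold changes of -0.73 ± 0.07 (SE), adjusted p = 2.21e-05 with sh#16 and -2.31 ± 0.08 (SE), adjusted p = 2.42e-08 with sh#87. H2BC10, for which no stem-loop was found, was measured at 12.8, 17.1 and 17.6 CPM in the NT libraries, 46.7, 51.4 and 51.2 CPM with sh#16 and 13.6, 11.6 and 12.3 CPM with sh#87, so that only sh#16 stood apart, with a log2 fold change of 1.65 ± 0.13 (SE), adjusted p = 4.17e-06 against NT and -1.99 ± 0.13 (SE), adjusted p = 4.83e-05 for sh#87 against sh#16.

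H2BC11 was the histone gene called in opposite directions, at 97.7, 120.3 and 149 CPM in the NT libraries, 167, 178 and 184 CPM with sh#16 and 82.5, 84.8 and 79.2 CPM with sh#87. The 3 groups did not overlap, and its log2 fold changes were 0.52 with sh#16 and -0.58 with sh#87. The call with sh#16 was lost in 9 of 19 alternative settings, among them leaving out NT replicate 2 or any 1 knockdown library and the length and GC correction, which gave 0.04. The call with sh#87 was lost in 3 of 19. The genes that rose with each hairpin were H2BC5, H2BC6 and H2BC9. H2BC5 stood at 83.7 ± 27.5 CPM in NT, 265 ± 13.6 CPM in sh#16 and 153 ± 16.7 CPM in sh#87, and H2BC9 at 93.1 ± 10.6 CPM in NT, 242 ± 15.1 CPM in sh#16 and 154 ± 26.1 CPM in sh#87 (SD, n = 3), with log2 fold changes with both shRNAs of 1.32 and 1.08. H2BC6 was the only H2B gene higher with sh#87 than with sh#16, at 1.03, 0.951 and 0.866 CPM in the NT libraries, 2.65, 1.86 and 1.43 CPM with sh#16 and 3.95, 4.61 and 5.44 CPM with sh#87, which is a low level. Its call with sh#16 was lost in 7 of 19 alternative settings. Among the other genes that rose with sh#16, the log2 fold changes were 0.77 with sh#16 and -0.44 with sh#87 for H2BC13, 0.76 with sh#16 and -0.17 with sh#87 for H2BC15, 0.84 with sh#16 and -0.17 with sh#87 for H2BC18 and 0.89 with sh#16 and 0.29 with sh#87 for H2BC21, all not called with sh#87. H2BC7 (-0.31 with sh#16 and -1.48 with sh#87), H2BC12 (-0.14 with sh#16 and -1.07 with sh#87) and H2BC17 (0.38 with sh#16 and -0.94 with sh#87) fell with sh#87 and were not called with sh#16. H2BC8 (0.62 with sh#16 and 0.04 with sh#87) was not called. Of the 6 histone genes listed as ones with polyadenylated transcripts in differentiated cells, H1-2, H2BC5 and H2BC21 rose with sh#16 and H2BC4 fell, while H2AC6 and H2BC12 were not called. With sh#87, H2BC5 rose and H2AC6, H2BC4 and H2BC12 fell.

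**Figure D4:**
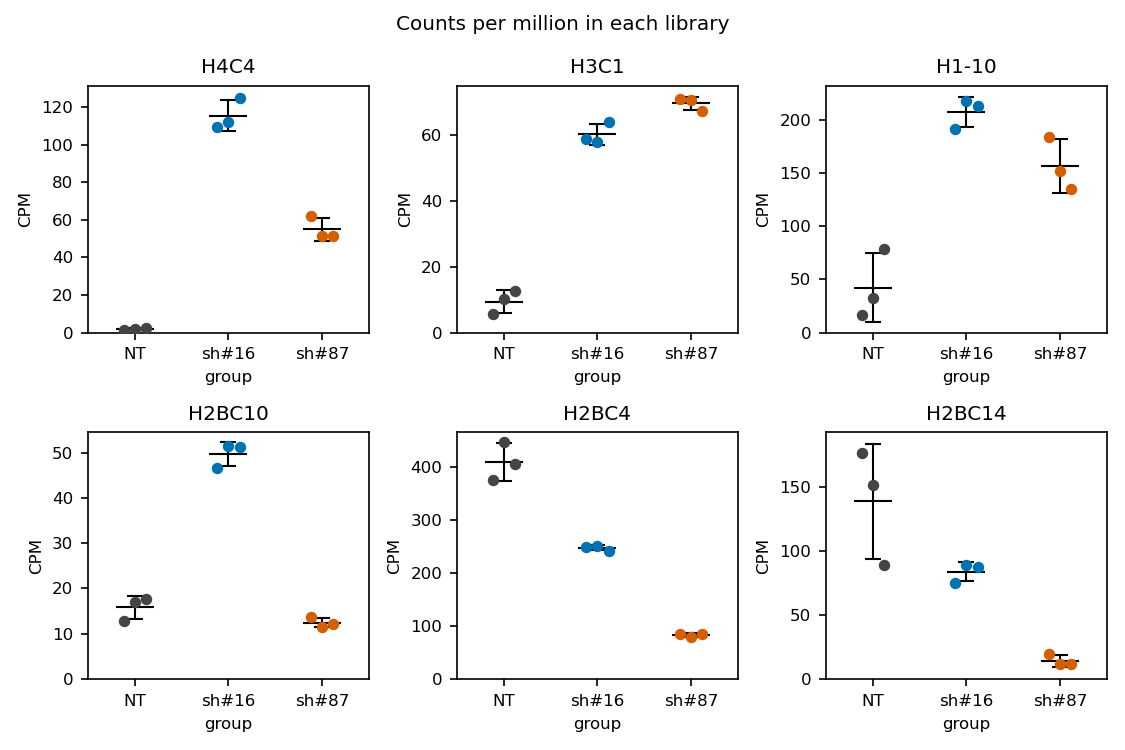
CPM of 6 histone genes in each library, with each point a library, the bar the mean and the whiskers the SD of 3 libraries. H4C4 and H3C1 are higher with both hairpins, H2BC10 only with sh#16, and H2BC14 is at most 19.9 CPM in every sh#87 library.

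H3 genes rose with both hairpins. H3 carries the lysines of the tail that are marked by acetylation and methylation. Of 11 genes, 10 rose with sh#16, 8 rose with sh#87, 9 rose with both as 1 group, and none fell. Of all genes, 29.8%, 34.3% and 30.1% were higher in the same order. With the length and GC correction 8, 6 and 7 rose, and 2 fell with sh#87. Of all genes, 31.8%, 35.0% and 29.8% were then higher, and 38.6% were lower with sh#87. The fold change limit was then passed by 1 H3 gene with both shRNAs, in place of 4. H3C1 (chr6:26020451-26020958, plus strand) was measured at 5.62, 10.03 and 12.5 CPM in the NT libraries, 58.7, 57.7 and 63.8 CPM with sh#16 and 70.7, 70.5 and 67.2 CPM with sh#87. All knockdown libraries lay above NT and, unlike in most histone genes, the sh#87 libraries lay above those of sh#16. Its log2 fold changes were 2.78 ± 0.23 (SE), adjusted p = 2.63e-06 with both shRNAs and 0.21 ± 0.21 (SE), adjusted p = 0.476 between the hairpins, the latter not a call. H3C13 was measured at 14.5, 29.8 and 46.9 CPM in the NT libraries, 154, 173 and 171 CPM with sh#16 and 148, 121 and 109.6 CPM with sh#87, with 2.26 ± 0.33 (SE), adjusted p = 0.000129 with both shRNAs. H3C14 and H3C15, which share at least 99.1% of their 100-base words, were measured as a sum at 75.6, 136 and 280.3 CPM in the NT libraries, 864, 923 and 972 CPM with sh#16 and 789.6, 597 and 548 CPM with sh#87. The sum rose by 2.25 ± 0.38 (SE), adjusted p = 0.000405 with both shRNAs on the log2 scale, and NT replicate 3 was the highest of NT. Taken alone, H3C14 had a log2 fold change of 2.25 ± 0.37 (SE), adjusted p = 0.0003 and H3C15 of 2.25 ± 0.41 (SE), adjusted p = 0.000579. H3C7 (1.97 with sh#16 and 1.44 with sh#87), H3C4 (1.59 with sh#16 and 1.17 with sh#87), H3C2 (1.17 with sh#16 and 0.79 with sh#87) and H3C6 (0.96 with sh#16 and 0.73 with sh#87) rose with each hairpin. The calls of H3C2 and H3C4 with sh#87 were lost in 9 and 8 of 19 alternative settings, among them leaving out NT replicate 2 or any 1 knockdown library. H3C10 (1.60 with sh#16 and 0.98 with sh#87) was called with sh#16 and not with sh#87. Its call with both shRNAs as 1 group was lost in 7 of 19 alternative settings, and that with sh#16 in 4. H3C2 and H3C4 stood at 218 ± 74.6 CPM in NT, 493 ± 15.5 CPM in sh#16 and 377 ± 29.7 CPM in sh#87, and at 122 ± 63.8 CPM in NT, 368 ± 7.60 CPM in sh#16 and 276 ± 8.39 CPM in sh#87 (SD, n = 3). The annotated span of H3C4 contains that of H2AC7 on the same strand, so their reads may not be fully separable. H3C11 (0.84 with sh#16 and -0.03 with sh#87) was called with sh#16 alone, and H3C12 (0.46 with sh#16 and -0.33 with sh#87) with neither.

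H4 genes ranged from 41.6-fold higher with both shRNAs to values below NT. Of 12, 9 rose with sh#16, and with sh#87 4 rose and 2 fell. The 75% that rose with sh#16 is above the 29.8% of all genes. With sh#87, 33.3% rose and 16.7% fell, near and below the 34.3% and 33.6% of all genes. With the length and GC correction, 6 of 11 rose and 1 fell with sh#16, and with sh#87 4 rose and 5 fell, with a median of -0.02 in place of 0.46. The corrected shares with sh#87, 36.4% higher and 45.5% lower, are near the 35.0% and 38.6% of all genes. H4C4 (chr6:26188710-26189112, minus strand) had the largest rise of all 60 genes and was measured at 1.63, 1.86 and 2.56 CPM in the NT libraries, 109.6, 112 and 125 CPM with sh#16 and 61.9, 51.4 and 51.4 CPM with sh#87. That is 38, 43 and 77 counts in NT, 2728, 5178 and 2278 in sh#16 and 1490, 1148 and 1011 in sh#87. The groups stood apart, with sh#16 highest. The log2 fold change was 5.38 ± 0.44 (SE), adjusted p = 2.56e-06 with both shRNAs. It was 5.81 with sh#16 and 4.74 with sh#87, and the difference between them was -1.07 ± 0.13 (SE), adjusted p = 0.000587. H4C4 shared no 100-base word with any other of the 56 genes that had a reference transcript. H4C2, which had none there, and H4-16, an H4 gene outside the symbol rule, were not compared with it.

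H4C14 and H4C15 have identical 100-base words, so the table's split between them is uncertain. H4C15 was measured at 7.504, 7.74 and 10.4 CPM in the NT libraries, 34.7, 32.7 and 34.3 CPM with sh#16 and 104, 119 and 118 CPM with sh#87, which gave 3.10 ± 0.56 (SE), adjusted p = 0.000599 with both shRNAs and a higher value with sh#87 than with sh#16 (1.75). Summed, the pair stood at 105, 138 and 186 CPM in the NT libraries, 608, 696 and 730.1 CPM with sh#16 and 578, 458 and 425 CPM with sh#87. The sum rose by 2.02 ± 0.23 (SE), adjusted p = 2.9e-05 on the log2 scale, and the difference between the hairpins was -0.48 (adjusted p = 0.0931), with no call. H4C2 (1.64 with sh#16 and 0.97 with sh#87) and H4C8 (1.57 with sh#16 and 0.77 with sh#87) rose with both shRNAs as 1 group, H4C2 without a call for sh#87 alone. H4C8 stood at 70.8 ± 14.2 CPM in NT, 211 ± 1.48 CPM in sh#16 and 121 ± 2.705 CPM in sh#87 (SD, n = 3). H4C3 (1.31 with sh#16 and 0.46 with sh#87), H4C9 (1.16 with sh#16 and -0.12 with sh#87) and H4C13 (0.84 with sh#16 and -0.17 with sh#87) rose with sh#16 and were not called with sh#87. The annotated span of H2BC12 overlaps H4C9 on the opposite strand, so strand-specific reads can tell these genes apart if the counts kept the strand. Alone, H4C11 (1.18 with sh#16 and 0.11 with sh#87) rose with sh#16 and H4C12 (0.16 with sh#16 and -0.86 with sh#87) fell with sh#87. H4C11 with H4C12, which share at least 90.7% of their words, gave 0.38 with sh#16 (not called) and -0.66 ± 0.16 (SE), adjusted p = 0.00479 with sh#87 when summed. H4C5, one of the 2 H4 genes whose test with sh#87 was lower than NT, was measured at 687, 445 and 253 CPM in the NT libraries, 281, 331 and 327 CPM with sh#16 and 173, 93.9 and 116 CPM with sh#87. Its sh#87 libraries lay below the other 2 groups, with a log2 fold change of -1.86 ± 0.34 (SE), adjusted p = 0.000835. NT replicate 1 was the highest and NT replicate 3 the lowest of NT. H4C1 (1.15 with sh#16 and 0.47 with sh#87) was not called.

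Promoter sequence was compared with all genes because histone promoters share a few short elements. In the 250 bases before the start (RefSeq, GRCh38.p14), the TATA box TATAAA on either strand stood in 37 of 54 histone genes and in 10.8% of all 34796 promoter stretches. The box CCAAT stood in 45 histone genes and 32.0% of all stretches. The octamer ATTTGCAT stood in 23 histone genes and 1.62% of all stretches. Overlap between motifs was not removed. The octamer, known as an element of H2B promoters, stood in 12 of 15 H2B and 10 of 14 H2A promoters and in 0 of 10 H4 promoters. These counts are not independent, since genes that start back to back hold the same octamer in both windows. The only H3 match was in H3C4, whose annotated start and promoter stretch are those of H2AC7. A match is only that these letters are present. The 120 bases before the start of the 2 genes with large rises follow, with motif letters in capitals.
H4C4, chr6:26189113-26189232, minus strand: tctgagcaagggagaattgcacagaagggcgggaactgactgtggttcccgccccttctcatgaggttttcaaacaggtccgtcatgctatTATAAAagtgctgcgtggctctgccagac
H3C1, chr6:26020331-26020450, plus strand: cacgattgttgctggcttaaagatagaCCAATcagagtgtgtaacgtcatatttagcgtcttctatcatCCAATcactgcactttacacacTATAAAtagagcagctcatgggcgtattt

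In 10 cases an H2A and an H2B gene start back to back, 194 to 248 bases apart, so that both transcripts leave from 1 stretch of promoter. The question asked of them was whether the members of such a pair moved together. The ratio of H2A to H2B counts inside each library does not depend on library scaling. In 5 pairs the ratios of all 6 knockdown libraries stood outside those of the 3 NT libraries, and these 5 gave p = 0.0238 each in the exact two-sided permutation test, the smallest it can give here (adjusted over the 10 pairs, p = 0.0476). Such separation was common in these data, since 34.1% of all genes had all 6 knockdown libraries above NT and 31.9% had all below. Those shares are of single genes, and none was worked out for ratios. The stretches between the starts of 3 such pairs follow, on the plus strand, with the same motifs of either strand in capitals.
H2AC14 and H2BC14, chr6:27814778-27815021: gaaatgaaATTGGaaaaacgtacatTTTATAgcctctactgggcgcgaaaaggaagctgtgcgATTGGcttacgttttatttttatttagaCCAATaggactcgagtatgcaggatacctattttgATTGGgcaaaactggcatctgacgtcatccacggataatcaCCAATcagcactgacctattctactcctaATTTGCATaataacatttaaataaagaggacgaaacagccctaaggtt
H2BC4 and H2AC6, chr6:26123927-26124171: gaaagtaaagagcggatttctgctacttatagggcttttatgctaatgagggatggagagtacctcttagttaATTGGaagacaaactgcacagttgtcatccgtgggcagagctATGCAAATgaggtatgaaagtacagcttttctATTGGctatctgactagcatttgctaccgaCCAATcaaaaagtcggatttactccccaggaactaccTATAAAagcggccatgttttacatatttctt
H2BC8 and H2AC8, chr6:26216689-26216920: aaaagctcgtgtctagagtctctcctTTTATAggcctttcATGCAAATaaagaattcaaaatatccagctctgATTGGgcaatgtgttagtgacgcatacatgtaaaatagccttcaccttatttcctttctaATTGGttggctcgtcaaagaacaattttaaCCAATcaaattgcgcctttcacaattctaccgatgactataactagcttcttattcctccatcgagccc

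In the H2AC14 and H2BC14 pair the log2 ratio was 1.05 ± 0.36 in NT, 1.94 ± 0.20 in sh#16 and 4.16 ± 0.55 in sh#87 (SD, n = 3). H2AC14 shares 61.8% of its words with H2AC13, so its part of this ratio is uncertain, while H2BC14 shares none with the genes compared. In the H2AC6 and H2BC4 pair the ratio was -0.17 ± 0.11 in NT, 0.39 ± 0.04 in sh#16 and 1.04 ± 0.11 in sh#87, and the 3 groups stood apart. For H2AC12 and H2BC12 it went from -2.84 ± 0.52 in NT to -0.68 ± 0.11 in the 6 knockdown libraries (SD, n = 6). The H2AC8 and H2BC8 pair moved the other way, from 1.44 ± 0.73 to 0.02 ± 0.26, and H2AC7 with H2BC7 moved by 0.41. In the other 5 pairs the ratios of the knockdown libraries overlapped those of NT.

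The counts by gene cluster and by kind of 3′ end are read against the shares of all genes given above, 29.8% higher and 30.2% lower with sh#16, and 34.3% higher and 33.6% lower with sh#87. Between the hairpins, 9.42% of all genes were lower and 8.29% higher with sh#87. On chromosome 6, 27 of 47 genes rose and 2 fell with sh#16, and 12 rose and 13 fell with sh#87, the latter shares below the background in each direction. On chromosome 1, 7 of 11 rose and 1 fell with sh#16, and 5 rose and 2 fell with sh#87. H2AC18, which cannot be read alone, is among those that fell with each hairpin. The near-identical H3C14 and H3C15, and H4C14 and H4C15, are counted singly among those that rose. Of the 38 genes whose every GENCODE transcript ended near the stem-loop, 20 rose and 1 fell with sh#16, 11 rose and 10 fell with sh#87, and 21 were lower with sh#87 than with sh#16. H2BC12 and H3C4, which have longer RefSeq spans, are counted there. Of the 13 genes with another transcript end as well, 10 rose and 1 fell with sh#16, 5 rose and 3 fell with sh#87, and 8 were lower and 2 higher with sh#87 than with sh#16. Of the 5 without a match to the stem-loop, 4 rose with sh#16 and 2 with sh#87. The median log2 differences between the hairpins were -0.75, -0.79 and -0.40 for these kinds of end. No test compared the kinds.

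Most histone genes were well covered. The median gene had a mean of 165 CPM over the 9 libraries, 44 genes had at least 100 CPM, and H1-6 was the gene under 1 CPM. The order of the levels was compared per kilobase of transcript. In NT, H4C12 led with 1580 CPM per kilobase, followed by H4C5 with 1121, H2BC12 with 1039 and H2BC4 with 892. With sh#16, H4C12 (1778), H2AC19 (1701), H4C14 (1626) and H1-5 (1234) led, and with sh#87, H2AC19 (1056), H4C14 (942), H4C12 (872.9) and H3C2 (737). H2AC19, H4C12 and H4C14 each share reads with a near-identical copy, so their places in this order are uncertain. The NT coefficient of variation was 47.1% for H4C5 and 20.8% for H4C12, so these neighbours do not differ beyond their spread.

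Among other genes of histone biology, some rose and some fell. Counts below are with both shRNAs unless another comparison is named, where 30.1% of all genes were higher and 29.7% lower. Of the 23 genes of histone mRNA processing and transcription, 7 were higher and 8 lower with both shRNAs, with a median of 0.05, against the background given above. SLBP, which binds the stem-loop, had a log2 fold change of 0.11 (adjusted p = 0.409), while NPAT, a co-activator of histone genes, rose by 0.76 (both named after their values were seen). HINFP, a factor of H4 promoters, rose by 1.35, and CPSF2 and LSM11, subunits of the histone cleavage machinery, fell by 1.21 and 0.84, while CPSF1 rose by 0.79. Of 25 S-phase genes, 9 were higher and 7 lower, with a median of -0.01, and the largest changes were TK1 at 2.31, RRM2 at 1.43, TYMS at -1.20 and CCNE2 at 1.18. Between the hairpins, 8 of these 25 (32%) were lower with sh#87 and 1 (4%) was higher. Of all genes, 9.42% were lower and 8.29% higher in that comparison. Against NT, 8 S-phase genes were higher and 6 lower with sh#16, and 9 higher and 11 lower with sh#87. Their relation to the histone values was not tested. Of the 9 measured histone variants, 3 rose and 2 fell, led by MACROH2A2 at -3.70 and H2AX, the variant phosphorylated at DNA breaks, at 3.38, with H3-3B at 1.55 and H2AZ2 at 1.41. Of 22 histone chaperones, 5 rose and 9 fell, with ASF1B at 2.25, TONSL at 1.51, NAP1L1 at -1.39 and ATRX at -1.27.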

How the data were processed

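Expression was measured by strand-specific, polyA-selected RNA sequencing of 9 HNT34 libraries. The authors deposited a table of whole-number estimated counts for 16612 genes, whose header names salmon, while the study's methods name STAR gene counts on GRCh38, so the counter is not certain. Counts that tools assign among near-identical copies are estimates. Library totals were 17096170 to 43502389, and no column of another sample was used.

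Groups came from the labels. All genes were fitted with edgeR 4.0.16 in R 4.3.3 (TMM scaling, filterByExpr, quasi-likelihood F test, Benjamini-Hochberg over 16312 genes): NT against 6 knockdown libraries in 1 fit, and each hairpin and their difference in a fit of 3 groups. Calls were made at an adjusted p of at most 0.01, with a fold change limit of 2 (log2). Standard errors were derived from the log2 fold change and its F statistic. The fit was tested on simulated counts, where 189 of 189 changed genes among 15980 were called for both shRNAs against NT. That is a check of the code, and no statement on a histone gene rests on it. Ratios of head-to-head pairs were tested by exact permutation (scipy 1.17.1). The alternatives were DESeq2 1.42.0, other scalings, filters and limits, other groups in the fit, a replicate block and leaving out each library, and, added after the data were seen, a length and GC correction and summed copies.

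The genes are named with their values, except 1 that is counted but not reported here by name, and the 8 with the largest fold changes in full. Among related genes, 4 of each list with the largest changes are named. Members and lists were chosen with earlier results of these data known. Positions and promoters are RefSeq GRCh38.p14 (54 of 60 promoters matched), and stem-loops, lengths and shared words are from GENCODE v44 transcripts on GRCh37 (56 of 60).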

Additional observations from a re-analysis of the deposited data

Results flagged for a closer look

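H2BC11 stood out because the hairpins moved it in opposite directions against the same NT libraries, with all 3 libraries of each hairpin on its own side of NT. Its log2 difference of sh#87 over sh#16 was -1.10 (adjusted p = 0.000559 in edgeR's quasi-likelihood test). The call with sh#16 was lost in 9 of 19 alternative settings, among them leaving out NT replicate 2 or any 1 knockdown library, and the length and GC correction, which gave 0.04. The call with sh#87 was lost in 3 of 19, and that of the difference in 0 of 19.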

How the results depend on the processing

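With both shRNAs, the count of lower histone genes was 1 and became 3 with DESeq2, 10 with the mean of the hairpins taken from a fit of 3 groups, 9 with the length and GC correction, 0 with near-identical copies summed and 5 at an adjusted p of at most 0.05. The length and GC correction left 3 genes past the fold change limit with both shRNAs and 2 with sh#16, and gave 10 lower genes with sh#16 and 25 with sh#87. For sh#87 against sh#16, 1 gene was higher with a replicate block or with copies summed, and 54 were lower when only these groups were fitted. Shares of all genes were worked out only for the main fit, upper-quartile scaling and the length and GC correction. Counts in the other settings, the 54 among them, show how the counts vary and are not set against a background. The direction turned for H2AC11 with sh#16 under the length and GC correction (-0.32) and for H4C15 between the hairpins with copies summed (-0.48). The cause was not tested.

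Leaving out each library in turn, 14 to 23 genes were higher, 1 to 3 lower and 4 to 10 past the fold change limit with both shRNAs. With sh#16 the ranges were 31 to 39, 1 to 6 and 6 to 15, with sh#87 12 to 24, 12 to 19 and 8 to 13, and between hairpins 1 to 2, 16 to 44 and 1 to 2. Replicate numbers did not pair the libraries (correlations of deviations from -0.14 to 0.08 over 9 pairs), and with a replicate block the counts of higher and lower genes were 19 and 1, 34 and 2, 19 and 14, and 1 and 23 in the same order. Of the called genes, 14 of 21, 24 of 38, 23 of 33 and 16 of 34 kept their call in every setting. Upper-quartile scaling moved the median of all genes with both shRNAs from 0.05 to 0.16 and that of histone genes from 0.61 to 0.72. Depth limits H1-6 and H2BC6, which have few counts.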

Other observations

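Histone genes outside the symbol rule were looked at after their values were seen. H4-16, a replication-type H4 gene on another chromosome, was measured at 3.95, 6.36 and 13.7 CPM in NT, 76.7, 78.2 and 85.1 CPM in sh#16 and 71.7, 66.3 and 62.4 CPM in sh#87 libraries. All knockdown libraries lay above NT, with a log2 fold change of 3.18 ± 0.34 (SE), adjusted p = 1.66e-05 in edgeR's quasi-likelihood test. The pseudogene H2BC20P was measured at 40.9, 36.1 and 33.5 CPM in NT, 23.7, 26.3 and 25.9 CPM in sh#16 and 106, 103 and 106 CPM in sh#87. It fell by 0.55 with sh#16 and rose by 1.51 with sh#87 on the log2 scale, opposite in order to most H2B genes.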
